A study of Homo sapiens with 14 samples.

Results

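The collagen chain genes are the genes that encode the alpha chains of collagen. Symbols made of COL, a type number, A and a chain number were taken from the count tables, which list 54628 gene symbols. Of 44 such symbols, 42 had at least 10 counts over all 14 libraries and are described here, 11 of fibrillar collagens, 9 of basement membrane collagens and 22 of other types. COL6A5 and COL6A6 had 3 counts each and were left out.

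RNA was sequenced from IMR90, a human lung fibroblast line used at passage 5, from 2 isolates that the protocol does not tie to libraries. Untreated cells are the group WT, and siHMGB2 is untreated cells with an siRNA against the chromatin protein HMGB2. In the groups ICM, siSRRM2, siBANF1 and siCTCF, cells received 10 µM of inflachromene (ICM), a small molecule that binds HMGB proteins, for up to 6 days to induce senescence, and the last 3 groups also carried an siRNA against the splicing protein SRRM2, the nuclear envelope factor BANF1 or the chromatin organizer CTCF. Each group has 2 libraries except ICM, whose libraries 1 and 2 belong with WT, siHMGB2, siSRRM2 and siBANF1, while ICM 3 and ICM 4 belong by the form of their labels with siCTCF. The cell line field of these last 4 libraries reads IMR91 to IMR94, and WT has no library among them, so set and treatment cannot be told apart when ICM 3-4 are compared with WT. No library labelled as a control siRNA was among those analysed.

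Collagens are triple helices of alpha chains. Fibrillar collagens, chiefly type I (COL1A1 with COL1A2), type III (COL3A1) and type V (COL5A1 with COL5A2), form the tensile fibrils of lung and skin and are the main product of fibroblasts. Type IV collagen (COL4A1 to COL4A6) builds the network of basement membranes, type VII anchors that network to the fibrils, type VI (COL6A1, COL6A2, COL6A3) forms beaded microfilaments around cells, and types XII and XIV decorate fibril surfaces.

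Levels are in CPM, a gene's counts scaled by the total gene counts of its library, which ran from 22336161 to 58257456. The targeted genes were checked first. HMGB2 had 27.7 and 28.0 CPM in WT against 3.18 and 3.52 CPM in siHMGB2. For CTCF, ICM 3-4 gave 94.9 and 91.9 CPM, and siCTCF 71.5 and 23.0 CPM. SRRM2 was lowest in the libraries labelled siBANF1 (59.0 and 17.0 CPM), and BANF1 was not lower there (17.0 and 36.7 CPM) than in ICM 1-2 (13.5 and 32.7 CPM), and the deposited files of the libraries labelled siSRRM2 and siBANF1 each carry the name of the other knockdown. Which knockdown these 4 libraries hold is therefore in doubt, and they are called by their labels throughout. ICM 1 and siBANF1 1 stood apart from the other libraries treated with ICM. Reads in no annotated feature made up 16.3% and 18.4% of their reads, against 2.69% to 6.46% in the other 8 treated libraries, and the main counts and medians that rest on them are given with and without them. Among markers of other cell types, KRT5, SFTPC, SFTPB and CD3E had no count in any library. The 6 epithelial markers summed to at most 2.36 CPM, the 5 leukocyte markers to at most 13.0 CPM and the 5 endothelial markers to 2.73 to 243.5 CPM (mostly TEK). The 4 markers of smooth muscle and pericytes, nearly all RGS5 and NOTCH3, were highest in the 6 libraries with the largest collagen shares: they summed to 690 and 573 CPM in WT, 657 and 478 CPM in siHMGB2, 516 CPM in siBANF1 1, 159 CPM in ICM 1 and at most 23.6 CPM in the other 8 treated libraries, with MYH11 and DES under 1 CPM throughout. The 8 fibroblast markers summed to 5069 and 5871 CPM in WT, 5214 and 2221 CPM in ICM 1 and 2, and 1157 and 511 CPM in ICM 3 and 4, and were lowest in ICM 4 and siCTCF 2, the libraries with the lowest collagen share. The part of these marker differences in the results was not tested. In bulk RNA, fewer cells of a type and less RNA per cell cannot be told apart.

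The 42 genes together took a smaller share of gene counts in most treated libraries than in untreated ones. They held 3.62% and 4.45% of gene counts in WT and 5.15% and 6.38% in siHMGB2. The share was 0.615% in ICM 3 and 0.328% in ICM 4, and 0.647% and 0.282% in siCTCF. It was 3.2% in ICM 1 but 0.547% in ICM 2, and 2.81% in siBANF1 1 but 0.623% in siBANF1 2. The first library of each of these groups was near WT and the second far below it. The libraries labelled siSRRM2 lay between, at 1.32% and 1.26%. The make-up of the share also differed. Fibrillar chains were 44.2% and 50.2% of collagen counts in WT, 59.6% in both libraries labelled siSRRM2, and 30.6% and 23.2% in ICM 1 and siBANF1 1, where the chains of the remaining types led with 50.5% and 56.0%.

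**Figure D1:**
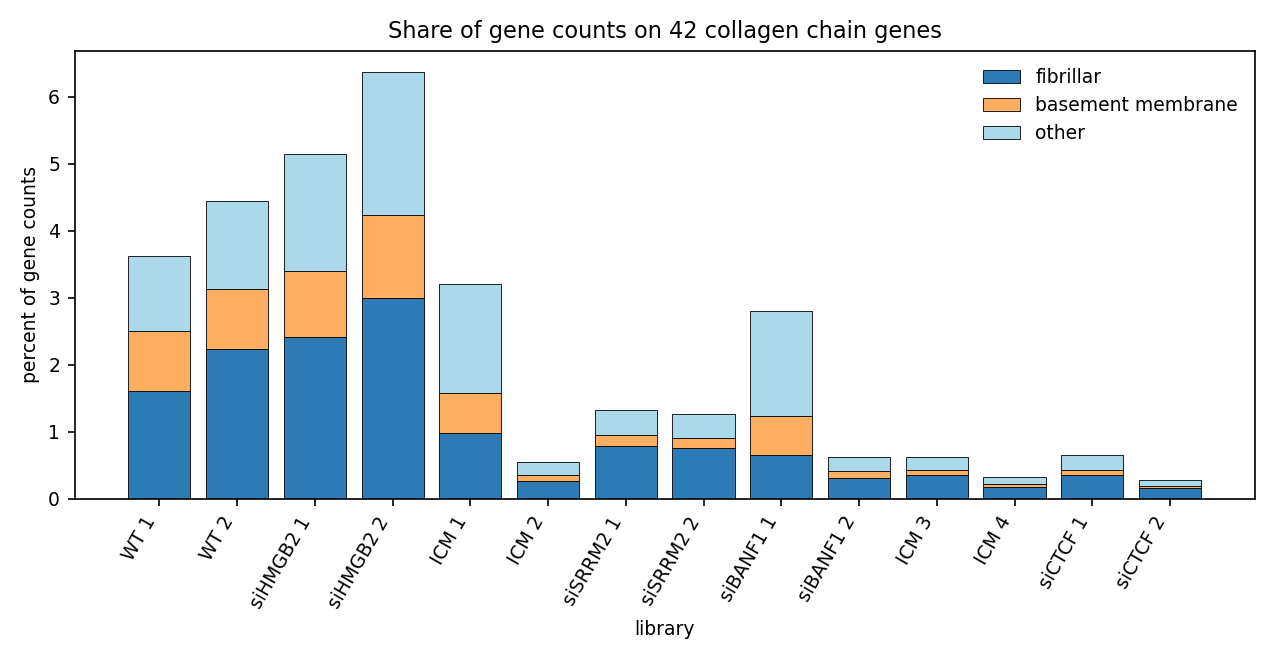
Stacked bars give the percent of gene counts on collagen chain genes in each of the 14 libraries, divided into fibrillar, basement membrane and other chains. ICM 1 (3.2%) and siBANF1 1 (2.81%) stand near WT, while the second library of each group is under 1%.

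Of the 42 genes, 35 passed the filter on low counts and were tested, and 22 had a mean of at least 10 CPM. The means of 7 groups were compared in 1 fit of all 14 libraries with edgeR's quasi-likelihood test. A gene counts as called where its p, adjusted after Benjamini and Hochberg over all 19126 genes tested, is under 0.05. Nothing in the labels says that the 2 libraries of a group came from separate cultures, so p-values measure the spread between libraries, which may be technical.

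The first comparison asks how collagen genes differ between ICM-treated and untreated cells. In ICM 1-2, 4 chains fell relative to WT and none rose: COL1A1, COL5A3, COL8A1 and COL14A1. That is 11.4% of the 35 tested, while 6.87% of all genes tested were called lower and 6.63% higher. The median log2 fold change of the 35 was -1.28, against 0.10 for all genes, with 28 below 0. It was -3.45 with 34 below 0 without ICM 1, and -0.48 with 23 below 0 without ICM 2. In ICM 3-4, 20 of 35 chains fell (57.1%, against 16% of all genes called lower and 14.3% higher) and none rose, with a median of -3.44 against -0.02 for all genes and 34 of 35 below 0. All 22 chains with a mean of at least 10 CPM were lower in both ICM 3 and ICM 4 than in either WT library, and 32 of the 35 tested were, against 33.3% of all genes. In ICM 1-2, 21 of 35 did not overlap with WT on the low side, against 25% of all genes. Without ICM 1, 12 chains were called lower in the first set (background 9.59%), and without ICM 1 and siBANF1 1 together 27 were (background 23%). Without ICM 2, 1 was called lower (COL5A3, background 4.3%) and 1 higher (COL8A2, a network-forming chain named after its value was seen, background 4.71%). Without WT 1 the count was 2 (background 1.79%) and without WT 2 it was 1 (background 1.89%), and COL5A3 alone was called in each of these 4 fits. For ICM 3-4 the count was 10 without ICM 3 (background 6.86%), 5 without ICM 4 (background 6.17%), 15 without WT 1 (background 7.31%) and 11 without WT 2 (background 6.41%), all lower, and COL1A2, COL5A3, COL8A1 and COL14A1 were called in every fit that left out a library.

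**Figure D2:**
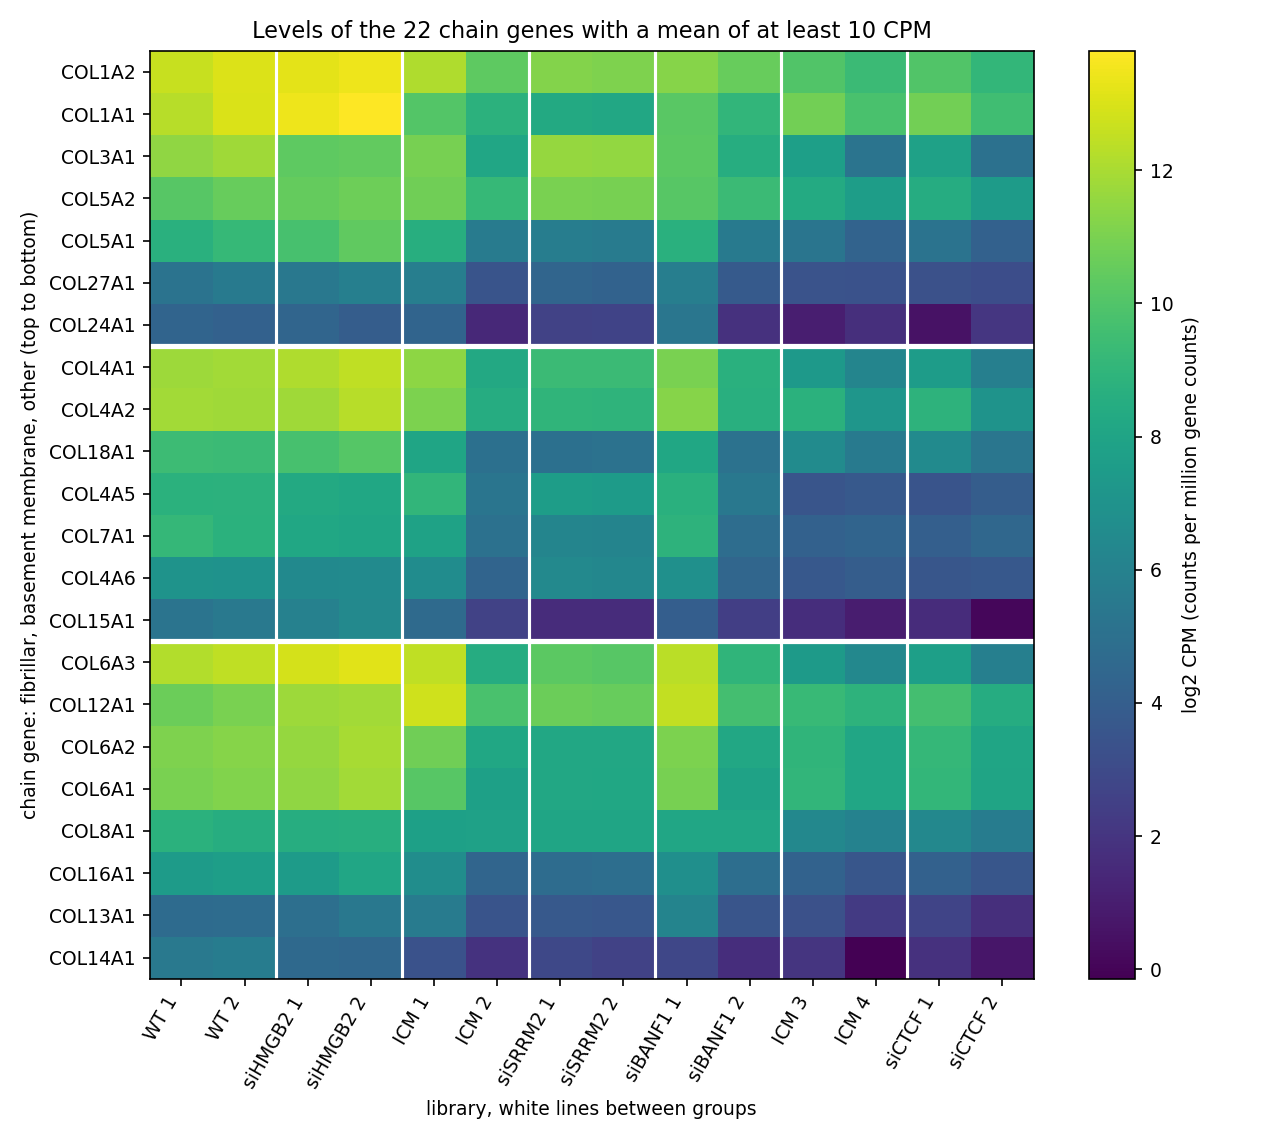
The colour gives log2 CPM of the 22 better expressed chain genes (mean 10 CPM or more) in each library, with chains grouped by class and libraries by group. The columns of ICM 3, ICM 4 and siCTCF are dark for most chains, and those of ICM 1 and siBANF1 1 resemble WT more than their own second library.

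Among fibrillar chains, type I collagen, the main fibril former, carried the largest counts. COL1A1 (chromosome 17, 50184101 to 50201631 in GRCh38) was at 5093 and 8116 CPM in WT, 1059 and 442 CPM in ICM 1 and 2, and 1831 and 873 CPM in ICM 3 and 4. Every ICM library lay below both WT libraries. COL1A1 fell 9.43-fold in ICM 1-2 (log2 fold change -3.24, SE 0.70, edgeR adjusted p 0.0152) and 5.68-fold in ICM 3-4 (-2.51, SE 0.68, adjusted p 0.0208). Neither call held in every fit that left out a library. The log2 fold change in ICM 1-2 was -2.70 without ICM 2 and -2.87 without WT 2.

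COL1A2 (chromosome 7, 94394895 to 94431227), whose product joins 2 COL1A1 chains in the type I trimer, was at 6385 and 8430 CPM in WT, 4538 and 1290 CPM in ICM 1 and 2, and 1042 and 654 CPM in ICM 3 and 4. It was not called in ICM 1-2 (log2 fold change -1.44, SE 0.60, edgeR adjusted p 0.134) and fell 10.2-fold in ICM 3-4 (-3.35, SE 0.65, adjusted p 0.00513). The order of the 2 type I genes therefore turned: per kilobase of transcript COL1A2 was the higher in every WT and first-set ICM library and COL1A1 in ICM 3 and 4.

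COL3A1, the type III chain that is copolymerized with type I, was at 2867 and 3606 CPM in WT, 1967 and 275 CPM in ICM 1 and 2, and 215 and 36.7 CPM in ICM 3 and 4. The groups did not overlap, yet ICM 1 was closer to WT than to ICM 2. The fall in ICM 3-4 was 29.5-fold (log2 fold change -4.88, SE 1.29, edgeR adjusted p 0.0185). COL5A1 and COL5A2, the type V chains that start fibrils and limit their width, fell in ICM 3-4 by 4.32 and 2.57 on the log2 scale. COL5A2 was the least changed of the major fibrillar chains in ICM 1-2, at 1752 and 585 CPM against 1170 and 1506 CPM in WT, and its groups overlapped (log2 fold change -0.29, SE 0.56). COL5A3, another type V chain, was at 17.8 and 18.0 CPM in WT, 1.80 and 0.59 CPM in ICM 1 and 2, and 0.17 and 0.47 CPM in ICM 3 and 4. It fell 16.0-fold in ICM 1-2 (log2 fold change -4.0, SE 0.75, edgeR adjusted p 0.00789). COL11A1, a minor fibrillar chain, went from 13.6 and 15.0 CPM in WT to 0.13 and 0.43 CPM in ICM 3 and 4, and COL27A1 fell by 2.17 on the log2 scale, which made 8 of 9 tested fibrillar chains called.

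Of the 9 basement membrane chains, 7 fell in ICM 3-4, with a median log2 fold change of -4.24. None was called in ICM 1-2, where the median was -1.28, but this rests on ICM 1: without it 6 of 9 were called lower (COL4A1, COL4A5, COL4A6, COL7A1, COL15A1 and COL18A1). COL4A1 (chromosome 13, 110148963 to 110307157), a chain of the main type IV trimer, was at 3405 and 3681 CPM in WT, 2767 and 310 CPM in ICM 1 and 2, and 165 and 73.0 CPM in ICM 3 and 4. Its partner COL4A2 was at 3751 and 3644 CPM in WT, 2096 and 359 CPM in ICM 1 and 2, and 430 and 147 CPM in ICM 3 and 4. For both genes ICM 1 lay nearer to WT than to the other 3 ICM libraries. The fall in ICM 3-4 was 34.6-fold for COL4A1 (log2 fold change -5.11, SE 1.16, edgeR adjusted p 0.0102) and 14.8-fold for COL4A2 (-3.89, SE 1.10, adjusted p 0.0242).

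COL4A5 and COL4A6, type IV chains of specialized basement membranes, went from 431 and 446 CPM and from 129 and 125 CPM in WT to 11.8 and 13.3 CPM and 13.0 and 15.6 CPM in ICM 3 and 4. COL7A1, the anchoring fibril chain, went from 574 and 437 CPM to 18.0 and 20.5 CPM, 31.1-fold lower. COL15A1 and COL18A1, proteoglycan collagens of the basement membrane zone, were 18.9-fold and 10.9-fold lower. COL18A1 is uncertain, because 16.4% of its exon bases lie opposite exons of SLC19A1 and whether counting used strand is not given in the sources used here.

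Among the other chains, type VI collagen did not move as a unit. COL6A3 (chromosome 2, 237324018 to 237414164) was at 4656 and 5611 CPM in WT, 5680 and 362 CPM in ICM 1 and 2, and 176 and 81.5 CPM in ICM 3 and 4. ICM 1 was above both WT libraries, and the other 3 ICM libraries were far below them. COL6A3 fell 46.4-fold in ICM 3-4 (log2 fold change -5.54, SE 1.43, edgeR adjusted p 0.0172). COL6A1 was at 2000 and 2324 CPM in WT and 525 and 273 CPM in ICM 3 and 4, and COL6A2 at 2211 and 2504 CPM and 514 and 274 CPM. Neither was called (log2 fold changes -2.66 and -2.80, edgeR adjusted p 0.0611 and 0.0513).

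COL12A1, whose product binds fibril surfaces, had the highest log2 fold change of the 22 chains in both ICM comparisons. It was at 1627 and 2012 CPM in WT, 7164 and 876 CPM in ICM 1 and 2, and 613 and 461 CPM in ICM 3 and 4. ICM 1 was above and the other ICM libraries below WT, and no change was called (1.07, SE 0.96 and -1.99, SE 0.99). COL8A1, a network-forming chain, had the smallest standard error of the 22. It was at 436 and 374 CPM in WT, 219 and 229 CPM in ICM 1 and 2, and 82.4 and 64.8 CPM in ICM 3 and 4. It fell 1.98-fold in ICM 1-2 (log2 fold change -0.99, SE 0.27, edgeR adjusted p 0.0392) and 6.47-fold in ICM 3-4 (-2.69, SE 0.29, adjusted p 0.000456). COL14A1, another fibril-associated chain, went from 45.9 and 52.6 CPM to 10.3 and 3.70 CPM and to 4.06 and 0.91 CPM, called in both. The remaining calls in ICM 3-4 were COL16A1 (14.5-fold lower) and COL9A2, which had 2.80 and 2.47 CPM in WT and 0.042 and 0.12 CPM in ICM 3 and 4.

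**Figure D3:**
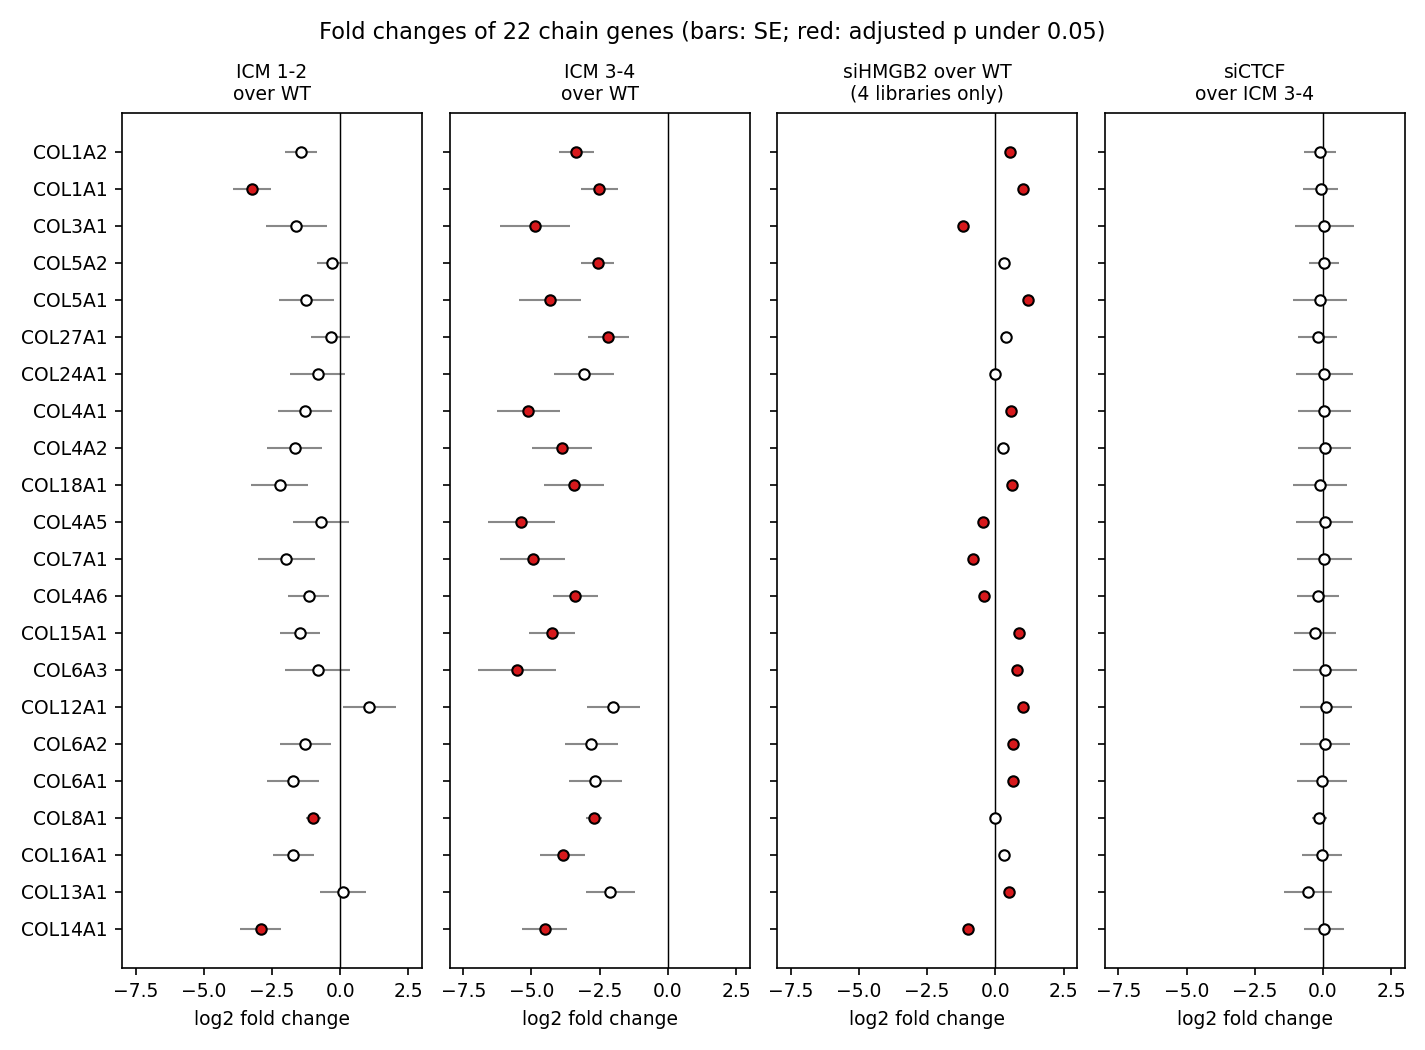
Points give the log2 fold change of 22 chain genes in 4 comparisons, with bars for the standard error and red fill for an edgeR adjusted p under 0.05; the panel of siHMGB2 uses the fit to its own 4 libraries. In ICM 3-4 all 22 points lie below 0, in siHMGB2 15 lie above and 7 below, and in siCTCF they run from -0.55 to 0.10.

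The difference between the 2 ICM sets was tested directly. Of 35 chains, 7 were lower in ICM 3-4 than in ICM 1-2 (20% of those tested, against 11% of all genes called lower and 8.53% higher) and none was higher, with a median of -2.26 against -0.11 for all genes. They were COL1A2 (log2 fold change -1.92), COL5A2 (-2.28), COL4A1 (-3.83), COL4A5 (-4.67), COL15A1 (-2.77), COL6A3 (-4.70) and COL8A1 (-1.71). COL1A1 was the only one of the 22 chains with a value above 0 (0.73, SE 0.65), and it was not called. Without ICM 2 the count was 25 (background 17.4%). It was 1, COL8A1, without ICM 1 (background 4.07%), without ICM 3 (background 2.92%) or without ICM 4 (background 4.07%), and 4 without ICM 1 and siBANF1 1 together (COL4A5, COL4A6, COL7A1 and COL8A1, background 14.3%). The sets also differ in label form, so set and treatment course cannot be told apart.

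Knockdown of HMGB2 in untreated cells was compared with WT. In the fit of all libraries no chain was called (0% of all genes were called in either direction), 1 of 35 had an unadjusted p under 0.05 and DESeq2 called none. The groups nevertheless did not overlap for 23 of 35 chains, 16 higher and 7 lower in siHMGB2, against 19.7% of all genes higher and 29.3% lower. In the fit to these 4 libraries alone, whose spread does not include ICM 1 or siBANF1 1, 13 chains were called higher and 5 lower, against 6.03% and 4.71% of all genes. COL1A1 was at 10997 and 14223 CPM in siHMGB2 (log2 fold change 1.00, SE 0.17, edgeR adjusted p 2.17e-05 in the 4-library fit) and COL1A2 at 9498 and 11054 CPM (0.54, SE 0.16, adjusted p 0.0184). COL5A1 went from 421 and 578 CPM in WT to 849 and 1344 CPM (1.2, SE 0.17). The 3 type VI chains had log2 fold changes of 0.66, 0.65 and 0.78 in the order COL6A1, COL6A2 and COL6A3, and COL12A1 of 1.02.

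The type III chain went the other way. COL3A1 was at 1312 and 1419 CPM in siHMGB2 against 2867 and 3606 CPM in WT, with both siHMGB2 libraries below both WT libraries (log2 fold change -1.18, SE 0.16, edgeR adjusted p 1.3e-07 in the 4-library fit). The other 4 chains called lower in that fit were COL14A1 (-0.99), COL7A1 (-0.83), COL4A5 (-0.47) and COL4A6 (-0.42). Among type IV genes, COL4A1 was called higher (0.59), while its partner COL4A2 overlapped between the groups, at 3606 and 4980 CPM against 3751 and 3644 CPM, and was not called (0.28). The 8 fibroblast markers summed to 6065 and 6162 CPM in siHMGB2, near the WT sums, but single markers moved in both directions. VIM was at 1789 and 2193 CPM in WT and 3114 and 3427 CPM in siHMGB2. PDGFRA was at 1555 and 1791 CPM in WT and 1099 and 877 CPM in siHMGB2.

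The libraries labelled siSRRM2 were compared with ICM 1-2. No chain was called and 2 had an unadjusted p under 0.05, while 0.0784% of all genes were called lower and 0.0993% higher. DESeq2's Wald test called 1 chain lower, COL15A1, which is 2.86% of those tested, near its share of 2.96% over all genes. The median log2 fold change was -1.20, with 28 of 35 below 0. Without ICM 1 the median was 0.93 with 6 of 35 below 0 and no calls (background 0.0575% lower and 0.0523% higher), so the direction of the list rests on ICM 1. Without ICM 1 and siBANF1 1 together, 5 chains were called higher (COL4A5, COL4A6, COL5A2, COL7A1 and COL9A2), against 4.74% of all genes. In these libraries COL3A1 had 3110 and 3021 CPM, above both ICM libraries (1967 and 275 CPM) and within the range of WT, while COL1A1 was at 320 and 302 CPM, below both ICM libraries (1059 and 442 CPM). COL5A2 was likewise above both, at 2000 and 1940 CPM. COL5A1 was at 54.8 and 51.3 CPM, between 392 and 50.8 CPM in ICM 1 and 2. Across the 22 chains, those with a higher GC content had the lower fold changes (Pearson r = -0.54, n = 22 chains), which was not so across 16950 genes (r = 0.03). The 22 values share the same 4 libraries, and the part of GC content in them was not tested. In the other comparisons r over the 22 chains ran from -0.38 (ICM 1-2 against WT) to 0.36 (siBANF1 against ICM 1-2).

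For the libraries labelled siBANF1, no chain was called against ICM 1-2, none had an unadjusted p under 0.05 and DESeq2 called none, with a median log2 fold change of 0.12; 0% of all genes were called in either direction. The median moved when a single library was left out: it was 2.11 without ICM 1, -0.72 without ICM 2, -1.67 without siBANF1 1 and 0.78 without siBANF1 2. Same-numbered libraries of these groups deviated together (correlation 0.81 over all genes), so each such fit leaves 1 library without its counterpart. Without ICM 1 and siBANF1 1 together the median was 0.18. With a replicate block it was 0.11 in the fit of all libraries and 0.14 with the compared libraries only. The groups overlapped for 33 of 35 chains, while 8.22% of all genes lay lower and 6.24% higher without overlap. COL1A1 was at 1179 and 515 CPM against 1059 and 442 CPM in ICM 1 and 2, and COL6A3 at 5269 and 500 CPM against 5680 and 362 CPM. For COL6A3 each group thus held 1 library near WT and 1 far below it. For COL1A1 every library of both groups lay below both WT libraries (5093 and 8116 CPM). COL8A1 was the exception among the 22 chains, at 271 and 275 CPM against 219 and 229 CPM, without overlap but not called (log2 fold change 0.32, SE 0.27).

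In siCTCF against ICM 3-4 no chain was called, none had an unadjusted p under 0.05 and DESeq2 called none; 0% of all genes were called in either direction. Log2 fold changes of the 22 chains ran from -0.55 (COL13A1, a membrane collagen) to 0.10 (COL12A1), with standard errors of 0.27 to 1.18, so moderate changes were not detectable for most chains at this spread. COL1A1 had 1820 and 725 CPM against 1831 and 873 CPM in ICM 3 and 4, and COL4A1 187 and 59.0 CPM against 165 and 73.0 CPM. siCTCF 1 lay near ICM 3 and siCTCF 2 near ICM 4 for both genes.

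Ratios between chains, per kilobase of transcript, show which chains moved together. COL1A1 per COL1A2 was 0.64 and 0.77 in WT and 0.93 and 1.03 in siHMGB2. It was 0.19 and 0.28 in ICM 1 and 2, 0.11 in both libraries labelled siSRRM2, and 1.41 and 1.07 in ICM 3 and 4. The protein trimer holds 2 COL1A1 chains for each COL1A2 chain, and none of the 14 libraries reached that ratio of transcripts. COL3A1 per COL1A2 was 0.44 and 0.42 in WT, 0.14 and 0.13 in siHMGB2, and 1.28 and 1.34 in the libraries labelled siSRRM2, where COL3A1 was the most abundant chain per kilobase. COL5A2 per COL5A1 was 3.32 and 3.11 in WT and 43.7 and 45.3 in the same libraries. These are ratios with 2 libraries a group, for which an exact permutation test cannot go below 0.333, and no test was made.

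COL6A1 per COL6A2 kept within 0.54 to 0.84 over all 14 libraries, the narrowest range of the ratios computed. COL6A3 per COL6A2 was 0.68 and 0.72 in WT but 0.11 and 0.10 in ICM 3 and 4. COL4A1 per COL4A2 was 0.89 and 0.99 in WT and 0.38 and 0.49 in ICM 3 and 4, and COL4A5 per COL4A6 3.48 and 3.71 against 0.95 and 0.89. ICM 3-4 thus had less COL6A3, COL4A1 and COL4A5 relative to their partners, in both libraries, with no overlap with WT.

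**Figure D4:**
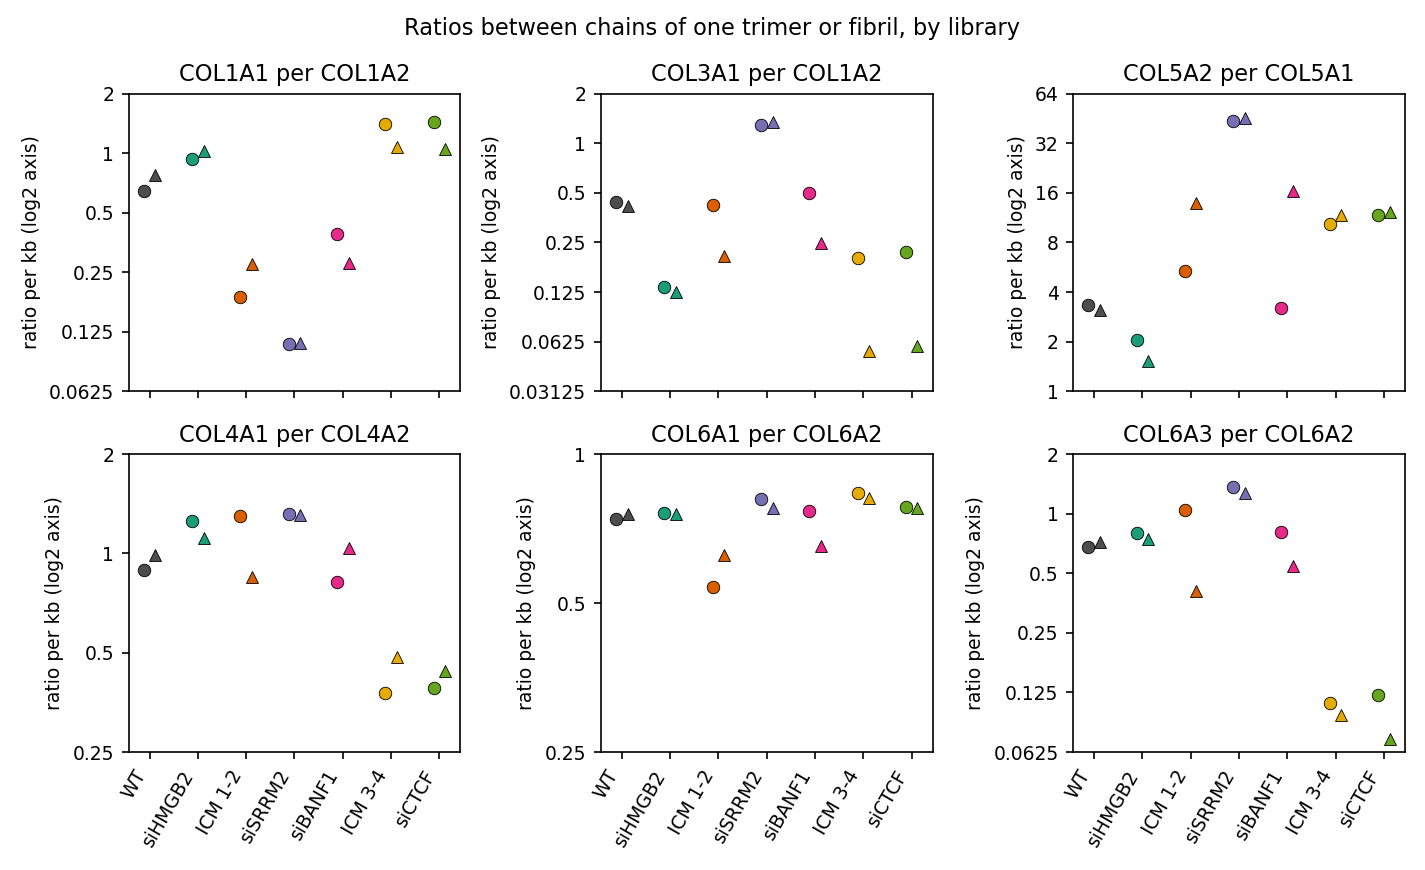
Each panel gives the ratio of 2 chain genes per kilobase of transcript in each library on a log2 axis, with a circle for the first and a triangle for the second library of a group. The libraries labelled siSRRM2 are lowest for COL1A1 per COL1A2 (0.11) and highest for COL5A2 per COL5A1 (43.7 and 45.3), and ICM 3-4 with siCTCF are lowest for COL6A3 per COL6A2.

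Several of these pairs are neighbours in the genome. COL4A1 and COL4A2 are transcribed away from each other from starts that are 126 bases apart, COL4A6 and COL4A5 from starts 379 bases apart, and COL4A4 and COL4A3 from starts 135 bases apart in RefSeq's GRCh38.p14 annotation. Log2 CPM over the 14 libraries had Pearson r = 0.97 for COL4A1 with COL4A2 and 0.99 for COL4A5 with COL4A6, and 0.97 for COL3A1 with COL5A2, whose ends are 19151 bases apart. It was 0.995 for COL6A1 with COL6A2 (93063 bases apart). The computed pairs on different chromosomes ranged from 0.33 (COL1A1 with COL3A1) to 0.873 (COL6A2 with COL6A3). Between these were 0.75 for COL1A1 with COL1A2 and 0.835 for COL1A2 with COL3A1. SPARC, a gene outside the family, had 0.995 with COL4A1, above the value of COL4A2. The 14 points share groups and library make-up, so these are descriptions. The whole stretch between COL4A1 and COL4A2, chr13:110307158-110307283, plus strand, is shown because it is the start region of both genes, and 250 bases before COL4A5, chrX:108439588-108439837, because COL4A5 had the largest fall among the type IV genes in ICM 3-4. Capitals mark CCAAT and GGGCGG on either strand.
COL4A1 to COL4A2: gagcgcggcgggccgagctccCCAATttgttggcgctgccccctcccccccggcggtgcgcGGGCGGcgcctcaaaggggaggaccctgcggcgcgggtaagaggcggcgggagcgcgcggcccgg
before COL4A5: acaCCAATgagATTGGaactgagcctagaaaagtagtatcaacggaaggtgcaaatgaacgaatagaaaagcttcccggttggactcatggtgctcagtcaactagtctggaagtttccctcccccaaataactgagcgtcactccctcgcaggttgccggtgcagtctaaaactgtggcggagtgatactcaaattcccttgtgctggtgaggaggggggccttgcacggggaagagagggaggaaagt
The first holds 1 match of each motif in 126 bases with a GC content of 80.2%, and the second 2 of CCAAT and none of GGGCGG with a GC content of 51.2%. Among 27305 RefSeq promoters, CCAAT occurs in 21.9% of windows of 126 bases and 33% of windows of 250 bases, and GGGCGG in 34.6% and 42.3%. A match is a description of letters, not a bound site.

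The third such pair, COL4A3 and COL4A4, which encode chains of the kidney and lung basement membrane, was singled out after its values were seen. ICM 1 had 1.52 CPM of COL4A3 and 1.5 CPM of COL4A4, and siBANF1 1 had 0.66 and 1.14 CPM. Neither exceeded 0.17 CPM in any other library. Both genes were thus highest in the 2 libraries that stood apart.

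The chains also share a sequence feature outside the coding region. miR-29 is a microRNA family known to repress collagen and other matrix genes, and its 3 members have the same seed, bases 2 to 8, in capitals.
miR-29a-3p: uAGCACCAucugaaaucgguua
miR-29b-3p: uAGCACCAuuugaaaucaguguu
miR-29c-3p: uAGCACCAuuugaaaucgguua
The letters TGGTGCT, which pair with this seed, were searched on the transcript strand of the 3′ UTR of 1 GENCODE v29 transcript per gene. They were found in 27 of 42 chains (64.3%), against 12.1% of 18553 coding genes and 12.7% of coding genes whose 3′ UTR length lies between the quartiles of the chains. By class, 10 of 11 fibrillar and 8 of 9 basement membrane chains held them, but 9 of 22 other chains. Sites of the chains that carry most counts are shown, 30 bases each, with the match in capitals.
COL1A1, chr17:50184562-50184591, minus strand: ggagggaatcacTGGTGCTatagaaattga
COL1A2, chr7:94430901-94430930, plus strand: gaagaatgttgaTGGTGCTagaagaatttg
COL3A1, chr2:189012004-189012033, plus strand: aaaatgtctcaaTGGTGCTataataaataa
COL4A1, chr13:110150316-110150345, minus strand: aatgtcacaacaTGGTGCTacttcttcttc
COL4A2, chr13:110512207-110512236, plus strand: gaagggccatttTGGTGCTtattcttaact
COL6A3, chr2:237324591-237324620, minus strand: gacctatcagtaTGGTGCTaatgtgtctgt
Of the 22 chains with a mean of at least 10 CPM, 17 held a match, and COL6A1, COL12A1, COL13A1, COL14A1 and COL18A1 did not. In ICM 3-4 against WT, the median log2 fold change was -3.86 for the 17 and -2.66 for the 5, and in ICM 1-2 against WT it was -1.28 and -1.73. The order of the medians thus differed between the sets, and small RNAs were not analysed here.

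Genes that process collagen were taken from a list of 48 genes, 46 of them tested. In ICM 3-4 against WT 15 fell (32.6%, against 16% of all genes) and 4 rose (8.7%, against 14.3%), with a median of -1.0. When a library was left out, the median was -1.32 without ICM 3, -0.66 without ICM 4, -1.02 without WT 1 and -0.94 without WT 2. Fewer genes were called in either direction in each of these fits. Without ICM 4 the share called lower was near that of all genes. Those that fell included P4HA3 (log2 fold change -4.91), a prolyl hydroxylase subunit, ADAMTS2 (-4.09), which removes the N-propeptide of type I procollagen, and ITGA1 (-3.58), a collagen-binding integrin chain. By role, 5 of 14 modifying enzymes (35.7%), 5 of 13 propeptide and crosslinking genes (38.5%), 4 of 7 receptors (57.1%) and 1 of 12 folding and export genes (8.33%) fell. The 4 that rose all belong to folding, export and translation: MIA3 (1.47), which loads procollagen into transport vesicles, LARP6 (1.18), which binds the 5′ stem-loop of collagen mRNAs, SEC24D (0.99) and FKBP14 (0.90). LARP6 was at 62.5 and 59.0 CPM in WT and 156 and 170 CPM in ICM 3 and 4, without overlap (edgeR adjusted p 0.0078). SERPINH1, the collagen chaperone HSP47, was at 955 and 1038 CPM in WT and 1008 and 553 CPM in ICM 3 and 4, with overlap. P4HA1 fell (-1.19) and P4HA2 had a value of -1.07 that was not called (edgeR adjusted p 0.107).

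In ICM 1-2 against WT 3 of the 46 were called, 4.35% lower and 2.17% higher, both below the shares over all genes (6.87% and 6.63%): P3H4 (log2 fold change -1.14) and FKBP10 (-1.13), which take part in lysine and proline modification and folding of procollagen, fell and LOXL4 (1.59), a crosslinking oxidase, rose. ADAMTS2 (-0.93), SERPINH1 (-0.42), P4HA1 (0.38), LARP6 (0.45) and P4HA2 (0.84) were not called. The median of the 46 was -0.79 without ICM 1, 0.10 without ICM 2, -0.23 without WT 1 and -0.19 without WT 2. Without ICM 1 the share called lower was above that of all genes and the share called higher below it. Without ICM 2, WT 1 or WT 2, fewer were called lower and no more were called higher. Between the ICM sets, 11 of 46 were lower in ICM 3-4 (against 11% of all genes), led by ITGA1 (-4.12), DDR2 (-3.19), a receptor kinase for fibrillar collagen, and P4HA3 (-2.94), and P4HB (0.90) was higher (against 8.53% of all genes). The median of the 46 was -0.23 without ICM 1, -1.05 without ICM 2, -1.08 without ICM 3 and -0.52 without ICM 4. More genes were called lower without ICM 2 and fewer without any of the other libraries. Without ICM 4 the share called lower was below that of all genes. For siHMGB2, siCTCF and the libraries labelled siSRRM2 and siBANF1 none was called. In the fit to the 4 siHMGB2 and WT libraries alone, 24 of 46 were called higher (52.2%, against 6.03% of all genes) and 2 lower (4.35%, against 4.71%), with CREB3L1 (1.54), ADAMTS2 (1.43) and LOXL2 (1.42) highest, and TRAPPC2 (-0.76) and TMEM38B (-0.64) lower. In that fit P4HA2 (1.02), SERPINH1 (0.72), P4HA1 (0.47) and LARP6 (0.43) were also higher.

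Outside the family, 9180 genes reached a mean of 10 CPM, and among them the 5 whose log2 CPM over the 14 libraries was most like that of COL1A1 were FKBP10 (Pearson r = 0.99), MMP19 (0.985), HTRA3 (0.978), AEBP1 (0.978) and LTBP4 (0.973). For COL4A1 they were SPARC (0.995), NCK2 (0.994), MYOCD (0.991), ODF2 (0.991) and FN1 (0.988). SPARC encodes a collagen-binding matrix protein, FN1 fibronectin, and FKBP10 a procollagen prolyl isomerase. SPARC was at 2466 and 3158 CPM in WT, 2794 and 795 CPM in ICM 1 and 2, and 464 and 307 CPM in ICM 3 and 4, with the same high ICM 1 as COL4A1.

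The remaining 20 chains had a mean under 10 CPM, 17 of them under 1 CPM. COL2A1 and COL11A2, which are among the chains of cartilage fibrils, did not exceed 0.121 and 0.112 CPM in any library. COL11A1, the other type XI chain, was at 13.6 and 15.0 CPM in WT. Of the 42 chains, 7 were too low to be tested. Of the 4 cartilage markers, ACAN was at 3.87 to 16.0 CPM in WT and siHMGB2 and at most 0.08 CPM elsewhere. SOX9 did not follow it. It was at 32.9 and 39.4 CPM in WT, 14.6 and 25.7 CPM in ICM 1 and 2, 36.9 and 30.1 CPM in ICM 3 and 4, and 47.1 CPM in siBANF1 1. MATN1 and CNMD were under 1 CPM in every library.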

How the data were processed

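The members and lists were chosen with earlier results of these data known. Each library's deposited file gives, for every gene symbol, an integer read count; STAR 2.7.3a, HTSeq 0.12.4, DESeq2 1.36.0 and hg38 are named in the submitters' processing notes, and the annotation release and strand setting are not given in the sources used here. RNA was extracted with Trizol and sequenced as paired-end TruSeq libraries, per the labels' protocols. Lines for reads given to no gene held 12.8% to 41.8% of reads and were left out.

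CPM was computed from library totals. Genes kept by filterByExpr (19126) went, after TMM scaling, into edgeR 4.0.16 (quasi-likelihood test, R 4.3.3), in 1 fit of 14 libraries with 7 residual degrees of freedom and Benjamini-Hochberg adjustment. The fit was tested on simulated data. Chains with a mean of at least 10 CPM or a call, 10 chains in any case, the 3 highest and lowest called genes of the processing list with 5 fixed ones, and the 5 most similar genes to COL1A1 and COL4A1 were named. Exon overlap, transcript length and GC content came from GENCODE v29, positions and promoters from RefSeq GRCh38.p14, where 31 of 42 chains had a promoter entry. Alternatives were other scalings, no filter, DESeq2 1.42.0, fits to compared libraries only, replicate blocks, other ICM controls and leaving out libraries. A GC content offset and leaving out ICM 1 with siBANF1 1 were added after the data were seen.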

Additional observations from a re-analysis of the deposited data

Results flagged for a closer look

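The ICM effect differed between the sets for 7 chains, by the edgeR quasi-likelihood test of ICM 3-4 against ICM 1-2 with Benjamini-Hochberg adjustment. The log2 fold changes were -1.92 for COL1A2, -2.28 for COL5A2, -3.83 for COL4A1, -4.67 for COL4A5, -2.77 for COL15A1, -4.70 for COL6A3 and -1.71 for COL8A1. All 7 were lower in both ICM 3 and ICM 4 than in either ICM 1 or ICM 2. The same contrast picked these chains, so this adds no support. Only COL8A1 was called in each of the 4 fits that left out a library of these groups, at 219 and 229 CPM in ICM 1 and 2 against 82.4 and 64.8 CPM in ICM 3 and 4. Set and treatment course cannot be told apart.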

How the results depend on the processing

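Counts of called chains moved with single libraries and with the filter, and the share over all genes in the same direction stands in brackets. For ICM 1-2 against WT, 4 were called; the count was 18, all lower, with all 4 ICM libraries (13.1%), 0 with the compared libraries only, 19 with no filter (18 lower, 5.65%, and 1 higher), 27 lower without ICM 1 and siBANF1 1 together (23%), and 1 to 12 when a library was left out. For ICM 3-4 against WT, 20 became 5 to 15 when a library was left out. With no library of these groups left out, it was 27 with the compared libraries only (23.5%) and 25 with DESeq2 (19.1%). It was 28 with no filter (11%) and 22 with the GC content offset (14.2%). Total count scaling (12.8%) and relative log expression scaling (15%) each gave 19, and all these calls were lower. For siHMGB2 against WT, 0 became 18 with the compared libraries only, 13 higher (6.03%) and 5 lower (4.71%). For the libraries labelled siSRRM2, 0 became 1 lower with DESeq2 (2.96%), 5 higher with ICM 3-4 as control (11.4%), 13 with no filter (12 lower, 1.78%, and 1 higher) and 5 higher without ICM 1 and siBANF1 1 (4.74%). For those labelled siBANF1, 0 became 6 higher with ICM 3-4 as control (9.02%), where COL4A1 (3.56), COL5A2 (1.92) and COL6A3 (4.67) reversed to called increases. For ICM 3-4 against ICM 1-2, 7 became, all lower, 19 with DESeq2 (16.7%), 12 with the GC content offset (8.69%), 0 with the compared libraries only, 26 with no filter (9.58%), 4 without ICM 1 and siBANF1 1 (14.3%), and 1 to 25 when a library was left out. With no filter, 5.86% of all genes were called higher for ICM 1-2 against WT and 0.637% for the libraries labelled siSRRM2. The cause of these moves in the counts was not tested where the setting itself does not show it.

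Equal replicate numbers did not pair the libraries by the labels. Deviations of same-numbered libraries correlated at -0.08 for ICM 1-2 with WT, 0.06 for siHMGB2 with WT, 0.00 for siSRRM2 and 0.81 for siBANF1 with ICM 1-2, over 2 pairs each. A replicate block in the fit of all libraries left 4 calls for ICM 1-2, all lower (7.87%), and 0 for siHMGB2, siSRRM2 and siBANF1. With the compared libraries only, the block gave 9 lower for ICM 1-2 (4.64%). For siHMGB2 it gave 18, of which 13 were higher (6.65%) and 5 lower (5.34%). A block after the file names gave 0 for siCTCF.

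Scaling by total counts moved the median of all genes from 0.10 to 0.24 for ICM 1-2 and from -0.02 to 0.18 for ICM 3-4, where calls over all genes went from 2732 higher and 3065 lower to 3448 and 2449. The GC content offset gave 3725 and 2710 there, and for ICM 1-2 moved 1269 higher and 1313 lower to 1578 and 1087. The direction of the called chains held under each of these scalings. Leaving out libraries leaves 1 in a group, which is assumed to vary like the others.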
